A study of Homo sapiens with 4 samples.

Results

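Transcription regulators that hold neuroblastoma cells in the adrenergic state were followed in BE(2)C cells with and without MYCN knockdown: PHOX2A, ISL1, HAND1, HAND2, GATA2, GATA3, TBX2 and LMO1. They were chosen by gene symbol as members of the adrenergic core regulatory circuit, and all 8 were found among the 26364 genes listed in each sample. BE(2)C is a clonal subline of a human neuroblastoma line that carries an amplified MYCN gene, and both groups consisted of these same cells. RNA was sequenced from 2 control samples (Ctrl), labelled wild type and transfected with a control siRNA, and from 2 MYCN knockdown samples (MYCN KD), transfected with siRNA against MYCN. The sample labels give 80 nM siRNA for both groups and RNA extraction on the following day, while the paper's methods give another concentration. The labels do not say whether replicates came from separate cultures, so the spread between them may be technical. The p-values measure the part of this spread left after the authors' adjustment for unwanted variation. In bulk RNA, a change in the number of cells that express a gene cannot be told apart from a change in RNA per cell.

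Neuroblastoma arises from the sympathoadrenal lineage of the neural crest. In its adrenergic state, a set of transcription factors bind each other's enhancers and their own, which keeps the whole set active and drives genes of noradrenaline synthesis and storage. The other, mesenchymal state depends on other factors, such as PRRX1 and members of the AP-1 family. In MYCN-amplified cells, MYCN binds many of the same enhancers as the adrenergic factors, so the question addressed here is how RNA of the core factors differed once MYCN was lowered.

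The values were RPKM, a read density scaled for gene length and for the reads of the sample, so that levels can be compared between genes. The totals behind the 4 samples were 29055819 to 34142988 normalized reads. MYCN itself had 1068 and 1073 RPKM in the controls and 720.2 and 718.0 RPKM in the knockdown samples, a ratio of 0.672, so that MYCN was lowered in part, in the direction the labels give. TH, DBH and CHGA, defining genes of this cell type, lay from 190.6 RPKM upwards in every sample. Differences were tested with limma on log2(RPKM + 1) over the 11411 genes whose mean RPKM reached 1, and adjusted p-values run over all of them. Fold changes on this scale are understated for genes of low RPKM. The replicates mirrored each other between groups. In 99.35% of tested genes, replicate 1 lay above replicate 2 in one group and below it in the other. This held for 8 of 8 core factors, and the deviations of replicate 1 had a correlation of -0.9845 across tested genes between the groups. With replicates paired across this mirror, in a fit chosen after seeing the data, 5910 tested genes were higher and 5262 lower, nearly all of the 11411. The p-values below come from the fit without this pairing, which treats the mirrored deviations as independent. Leaving out the same-numbered replicate of either group gave nearly the same value for the core factors. Such pairs of fits are not separate checks.

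RNA of the core factors spanned more than 2 orders of magnitude. In the controls, mean RPKM ran from 570.0 for HAND1 through 400.7 for GATA2, 256.2 for PHOX2A, 214.3 for HAND2, 69.6 for TBX2, 65.9 for GATA3 and 24.7 for ISL1 to 2.39 for LMO1. The ranges of the 2 control samples were apart for every pair of neighbours in this order except TBX2 and GATA3. HAND1 ranked 93 and GATA2 ranked 126 by control level among the 11411 tested genes, and LMO1 ranked 9598. After MYCN knockdown, HAND1 (mean 530.8 RPKM), PHOX2A (503.4 RPKM) and GATA2 (473.5 RPKM) formed a group at the top in which neighbours overlapped between samples. The remaining order was HAND2, TBX2, GATA3, ISL1 and LMO1, with ranges apart. The RPKM summed over the core factors was 1688 and 1520 in the controls and 1949 and 2134 in the knockdown samples. Of this sum, PHOX2A made up 15.8% and 16.2% in the controls and 24.8% and 24.5% after knockdown. HAND1 made up 36.7% and 34.3% in the controls and 24.95% and 27.0% after knockdown. The share of GATA2 moved less, from 25.1% and 24.9% to 23.0% and 23.4%.

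**Figure D1:**
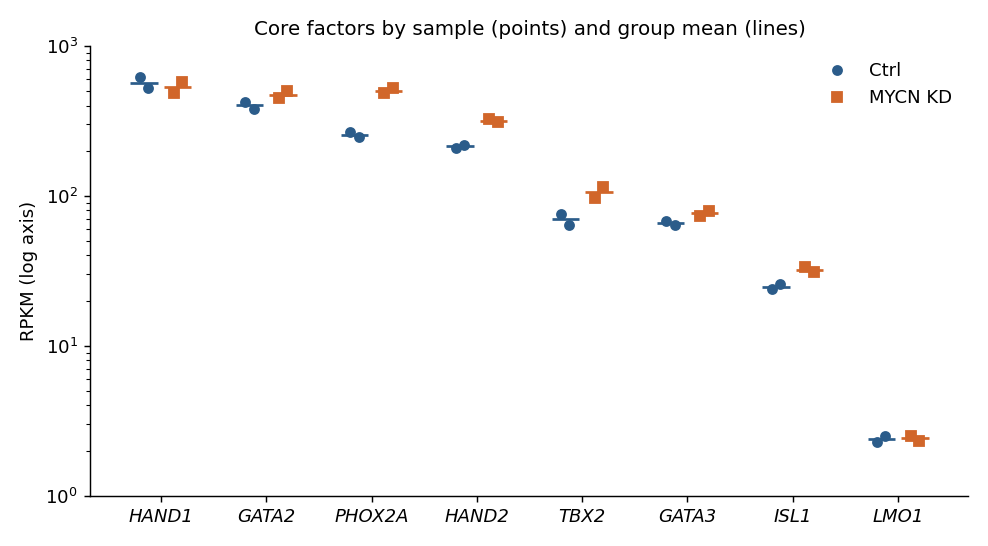
RPKM of the 8 core factors on a log axis, in control (circles) and MYCN knockdown (squares) samples, with a line at each group's mean (n = 2). PHOX2A, HAND2, TBX2 and ISL1 lie apart between groups, as do GATA2 and GATA3 by smaller gaps, and HAND1 and LMO1 overlap.

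PHOX2A and ISL1 are homeodomain proteins. PHOX2A is a determinant of noradrenergic neurons that activates the dopamine beta-hydroxylase gene, and ISL1 is a LIM-homeodomain factor of developing sympathetic and motor neurons. The PHOX2A gene spans positions 71950121 to 71956708 of chromosome 11 in GRCh37 (minus strand, 3 exons). It had 266.4 and 245.9 RPKM in the controls and 484.1 and 522.7 RPKM after knockdown. Both knockdown samples were far above both controls, and the lowest knockdown value was 1.82 times the highest control value. PHOX2A rose by 0.97 on the log2 scale (standard error 0.067, 95% interval 0.77 to 1.17, adjusted p = 0.00460 from limma), from 256.2 ± 14.5 to 503.4 ± 27.3 RPKM (SD, n = 2). This was more than the absolute change of 96.4% of the tested genes on the log2(RPKM + 1) scale. That scale understates changes of genes of low RPKM, so the share favours genes of high RPKM such as PHOX2A. ISL1, on chromosome 5 from 50679282 to 50690564 on the plus strand with 6 exons, had 23.8 and 25.7 RPKM in the controls and 33.4 and 31.0 RPKM after knockdown. The groups did not overlap. ISL1 rose by 0.37 on the log2 scale (standard error 0.065, 95% interval 0.18 to 0.56, adjusted p = 0.0218 from limma), a ratio of means of 1.30. Both calls held under each of 12 alternative settings. The adjusted p reached at most 0.00937 for PHOX2A and 0.0426 for ISL1.

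HAND1 and HAND2 are basic helix-loop-helix proteins of the heart and the sympathetic lineage that bind DNA together with E proteins, and the knockdown was followed by different values for them. The HAND2 gene spans positions 174446120 to 174451380 of chromosome 4 (minus strand, 2 exons). It had 209.0 and 219.5 RPKM in the controls and 323.7 and 308.7 RPKM after knockdown. Replicates lay close together and the groups were well apart. HAND2 rose from 214.3 ± 7.43 to 316.2 ± 10.6 RPKM (SD, n = 2). On the log2 scale the difference was 0.56 (standard error 0.047, 95% interval 0.42 to 0.70, adjusted p = 0.00588 from limma). HAND1, on chromosome 5 from 153854532 to 153857787 on the minus strand with 2 exons, had 619.1 and 520.9 RPKM in the controls and 486.4 and 575.3 RPKM after knockdown. The samples of the groups interleaved, and the highest and the third highest value were controls. Its log2 fold change was -0.10 (standard error 0.13, 95% interval -0.50 to 0.29, adjusted p = 0.564 from limma). Its direction turned with the samples used, at 0.02 both without control replicate 1 and without knockdown replicate 1. Because the deviations of the groups mirrored each other, these 2 values are not separate observations. The call on HAND2 held under 12 of 12 alternatives, and HAND1 passed under 0 of 12.

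GATA2 and GATA3 are zinc finger factors that bind GATA motifs and act in blood as well as in sympathetic neurons. The GATA2 gene spans positions 128198270 to 128212044 of chromosome 3 (minus strand), and GATA3 spans 8087341 to 8117161 of chromosome 10 (plus strand), with 6 exons each. GATA2 had 422.9 and 378.4 RPKM in the controls and 448.0 and 499.1 RPKM after knockdown. The groups did not overlap, but the lowest knockdown value was only 1.06 times the highest control value. The log2 fold change was 0.24 (standard error 0.089, 95% interval -0.02 to 0.50, adjusted p = 0.104 from limma), which did not pass the threshold of 0.05. GATA3 had 68.4 and 63.4 RPKM in the controls and 73.9 and 79.6 RPKM after knockdown, again without overlap and with a small gap. Its log2 fold change was 0.22 (standard error 0.065, 95% interval 0.03 to 0.41, adjusted p = 0.0670 from limma). Whether GATA2 passed depended on single samples and on scaling. It passed without control replicate 1 (log2 fold change 0.32, adjusted p = 0.0123 from limma), without knockdown replicate 1 (0.32, adjusted p = 0.0150) and with samples rescaled to the same RPKM total (0.30, adjusted p = 0.0435). Over its 12 alternatives the adjusted p ran from 0.0123 to 0.250. GATA3 passed with that rescaling (0.28, adjusted p = 0.0233) and with quantile normalization (0.27, adjusted p = 0.0315), within a range of 0.0233 to 0.288.

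TBX2, a T-box factor that mostly represses its targets, lies on chromosome 17 from 59477204 to 59486827 on the plus strand, with 7 exons. It had 75.6 and 63.5 RPKM in the controls and 97.2 and 115.1 RPKM after knockdown. The groups were apart, with a wide gap between the replicates of each. TBX2 rose from 69.6 ± 8.59 to 106.2 ± 12.6 RPKM (SD, n = 2). On the log2 scale the difference was 0.60 (standard error 0.13, lower end of the 95% interval 0.21, adjusted p = 0.0354 from limma). The call was lost when genes of low RPKM were kept in the fit (adjusted p = 0.0578) and held under the other 11 of 12 alternatives. LMO1, a LIM-only protein that does not bind DNA itself and joins DNA-binding factors through LDB1, lies on chromosome 11 from 8245856 to 8290263 on the minus strand. It was by far the lowest of the core factors, with 2.28 and 2.50 RPKM in the controls and 2.51 and 2.32 RPKM after knockdown. These values rested on 127 and 130 normalized reads in the controls and 119 and 117 after knockdown. Scaled to RPKM, the exact 95% Poisson interval of the lowest of these counts, 1.92 to 2.78 RPKM, held the values of all 4 samples. It covers counting error only and treats normalized reads as if they were counted. The log2 fold change of LMO1 was 0.01 (standard error 0.059, 95% interval -0.16 to 0.19, adjusted p = 0.879 from limma), and it was -0.03 without control replicate 1, -0.03 without knockdown replicate 1 and -0.08 with quantile normalization. The standard error lies below the counting error of so few reads, so the interval is narrower than the counts allow.

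Of the core factors, 4 of 8 rose, 0 of 8 fell and 4 did not pass the threshold. Among all tested genes, 25.3% were higher and 22.8% were lower by the same rule, so the share of risers was larger among the members, and no test was run on a list of 8 genes. Both knockdown values lay above both control values in 6 of 8 members, against 40.4% of tested genes, and below them in 0 members, against 35.8% of tested genes. The median log2 fold change was 0.30 over the members and 0.03 over all tested genes. With 2 samples against 2, the exact two-sided permutation test of a single gene cannot give a p below 0.3333, which PHOX2A, HAND2, GATA2, GATA3, ISL1 and TBX2 reached.

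**Figure D2:**
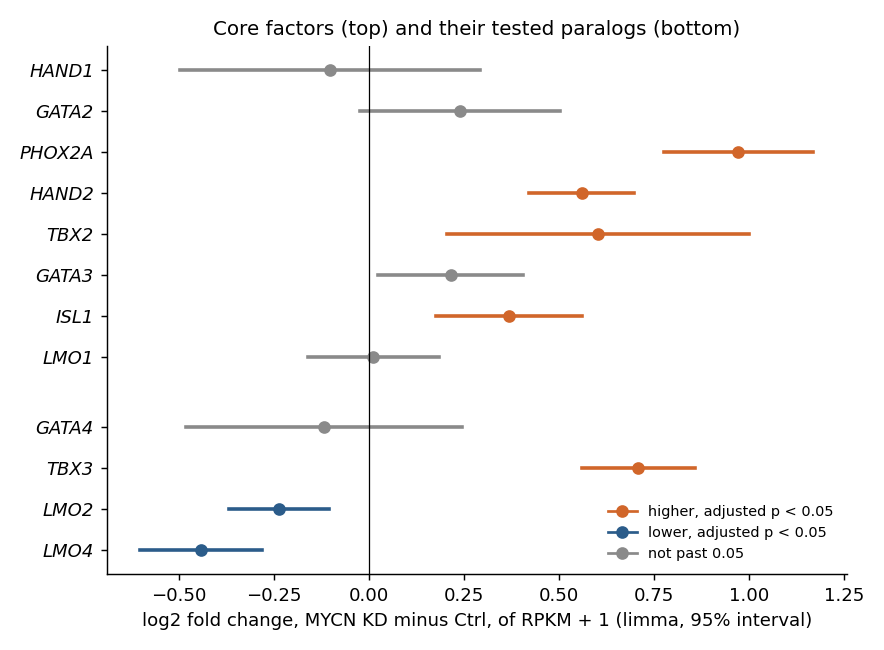
Log2 fold change of RPKM + 1 between MYCN knockdown and control from limma, with 95% intervals (n = 2 per group), for the 8 core factors and below them 4 paralogs that passed the filter on low values. The intervals of PHOX2A, HAND2, TBX2, ISL1 and TBX3 lie above 0, as does that of GATA3, which did not pass after adjustment, and those of LMO2 and LMO4 lie below 0.

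**Figure D3:**
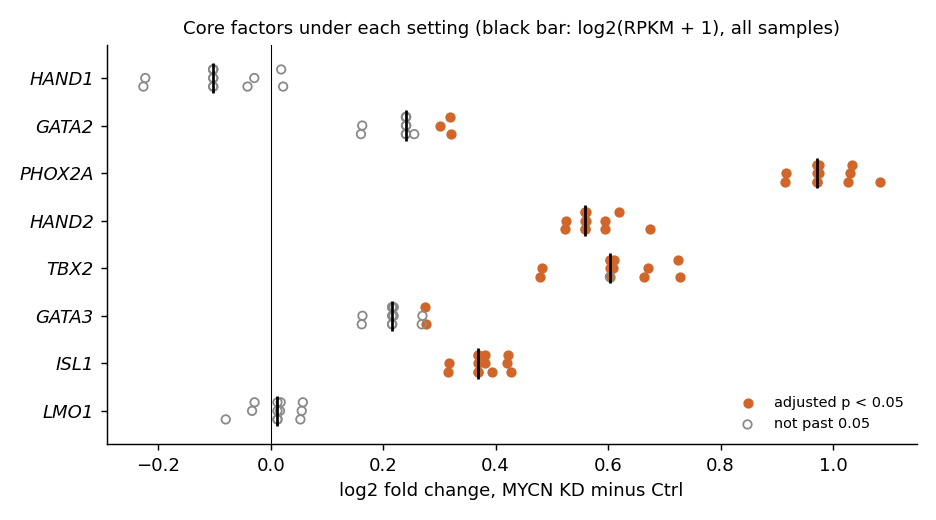
Log2 fold change of each core factor under each setting, filled where the adjusted p from limma was under 0.05 and open otherwise, with a black bar at the value from all samples on log2(RPKM + 1). PHOX2A, HAND2 and ISL1 are filled throughout, TBX2 in all but 1 setting, GATA2 and GATA3 in a few, and HAND1 and LMO1 in none.

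Each core factor belongs to a family, and its paralogs were compared next. The ratio of HAND2 to HAND1 was 0.338 and 0.421 in the controls and 0.666 and 0.537 after knockdown, so HAND1 stayed the more abundant in every sample. This ratio did not overlap between groups. The ratio of GATA2 to GATA3 stayed between 5.97 and 6.27 in all 4 samples and overlapped between groups. TBX3 rose from 58.7 ± 2.23 to 96.5 ± 3.52 RPKM (SD, n = 2; log2 fold change 0.71, adjusted p = 0.00476 from limma). The ratio of TBX2 to TBX3 overlapped, at 1.26 and 1.11 in the controls and 1.03 and 1.16 after knockdown. The exact two-sided permutation p was 0.3333 for HAND2 to HAND1, the smallest this design allows, and 0.6667 for GATA2 to GATA3 and for TBX2 to TBX3.

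**Figure D4:**
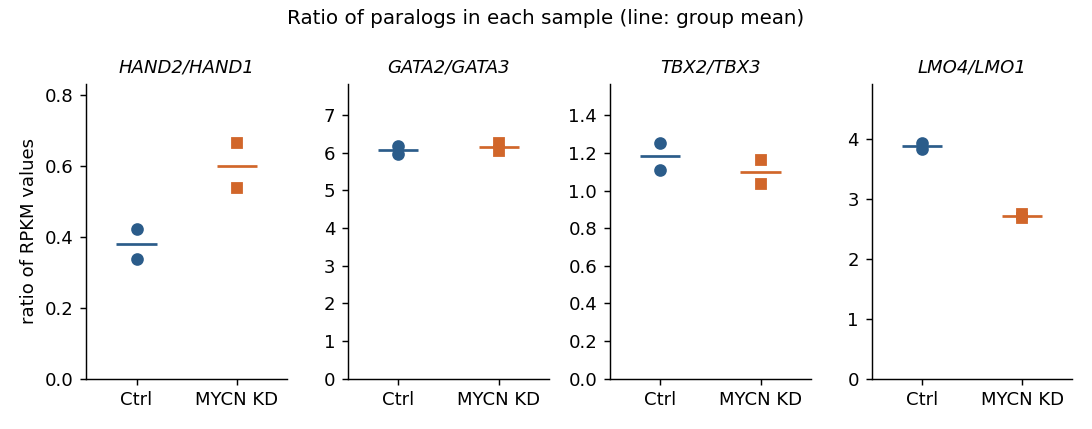
Ratio of the RPKM of 4 pairs of paralogs in each control and MYCN knockdown sample on linear axes from 0, with a line at the mean of the 2 samples. HAND2 to HAND1 is higher and LMO4 to LMO1 lower in both knockdown samples, and the other two ratios overlap.

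Of 11 paralogs in all, 4 passed the filter, 1 rose, 2 fell and GATA4 did not pass the threshold, where 25.3% of all tested genes were higher and 22.8% lower. GATA4, known from heart and gut endoderm, had 32.5 and 27.7 RPKM in the controls and 25.5 and 29.8 RPKM after knockdown, with overlapping groups (log2 fold change -0.12, adjusted p = 0.474 from limma). Among the LIM-only genes LMO4 was the highest and LMO1 and LMO2 were close in the controls. LMO4 fell from 9.27 ± 0.390 to 6.57 ± 0.257 RPKM (SD, n = 2; log2 fold change -0.44, adjusted p = 0.0107 from limma). LMO2, a partner of GATA factors in blood formation, fell from 2.49 ± 0.0887 to 1.96 ± 0.0677 RPKM (SD, n = 2; log2 fold change -0.24, adjusted p = 0.0253 from limma). It rested on 200 and 197 normalized reads in the controls and 141 and 143 after knockdown. The SDs of LMO2 lie below the counting error of such read numbers, so they do not measure reproducibility. The call on LMO2 held under 5 of 11 alternatives and was lost without any single sample, with adjusted p-values of 0.117 without control replicate 1, 0.227 without control replicate 2, 0.132 without knockdown replicate 1 and 0.220 without knockdown replicate 2. GATA1 and TBX5 were at 0 in every sample, and GATA5, GATA6, ISL2, TBX4 and LMO3 had at most 0.140 RPKM. The ratio of LMO4 to LMO1 was 3.94 and 3.83 in the controls and 2.68 and 2.75 after knockdown, without overlap (exact two-sided permutation p = 0.3333).

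Of 6 listed noncoding genes that run against or beside core factors, 4 were found in the data. All 4 rose, against 25.3% of tested genes. HAND2-AS1 had 67.8 and 74.0 RPKM in the controls and 107.2 and 98.5 RPKM after knockdown (log2 fold change 0.53, adjusted p = 0.0129 from limma). TBX2-AS1 had 28.0 and 25.7 RPKM against 42.3 and 45.8 RPKM (0.69, adjusted p = 0.00740). GATA2-AS1 had 10.1 and 8.73 RPKM against 13.95 and 16.1 RPKM (0.62, adjusted p = 0.0215). Each of these 3 held under 12 of 12 alternatives, and its groups were apart. GATA3-AS1 had 7.76 and 6.87 RPKM against 9.41 and 10.6 RPKM (0.40, adjusted p = 0.0358). It held under 7 of 12 alternatives and was lost without control replicate 2 (adjusted p = 0.0556) and without knockdown replicate 2 (adjusted p = 0.0719). GATA2-AS1 and GATA3-AS1 passed where GATA2 and GATA3 did not. The ratio of GATA2 to GATA2-AS1 was 41.8 and 43.4 in the controls and 32.1 and 31.0 after knockdown, and that of GATA3 to GATA3-AS1 was 8.82 and 9.23 against 7.86 and 7.53, both without overlap (exact two-sided permutation p = 0.3333). The ratio of HAND2 to HAND2-AS1 overlapped, at 3.08 and 2.97 against 3.02 and 3.14. Whether counting used strand is not given in the sources used here. In the GENCODE 44 annotation on GRCh37, HAND2 shares 867 of its 3601 exonic bases with exons of HAND2-AS1 on the other strand, and without strand reads from these bases could not be told apart. The gene models that were counted had lengths of 2368 and 766 bases, and the bases shared in them were not measured. GATA2 and GATA2-AS1 share 78 exonic bases, and the GATA3 and TBX2 pairs share 0. With introns included, the spans overlap by 3035 bases for the GATA3 pair, 3990 for GATA2, 2960 for HAND2 and 9624 for TBX2. Whether intron reads of one gene were counted on exons of the other was not tested, so the pairs may not be separate.

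The start regions of members were read next to see which letters they hold. The RefSeq table had 13 start sites for 7 of the 8 members and none for TBX2, which also rose, and the 250 bases before each start were searched on both strands for CACGTG, the E-box of MYC family proteins with MAX, for AGATAA and TGATAA, bound by GATA factors, for TAATTA, a homeodomain core, for CATCTG, bound by HAND proteins with E proteins, and for TCACACCT, a T-box site. The 4 windows below run 5′ to 3′ in the direction of the gene, with motif matches in capitals. They are those of HAND2, ISL1 and PHOX2A, which rose, and HAND1, which did not pass, and they were chosen after these values were seen. The windows were matched exactly to GRCh37 at chr4:174451381-174451630 (minus strand) for HAND2, chr5:50679032-50679281 (plus strand) for ISL1, chr11:71955221-71955470 (minus strand) for PHOX2A and chr5:153857788-153858037 (minus strand) for HAND1. The PHOX2A window lies inside the gene span given above, since the RefSeq start is downstream of the GENCODE start, whereas the other windows end at the start of the span.
HAND2: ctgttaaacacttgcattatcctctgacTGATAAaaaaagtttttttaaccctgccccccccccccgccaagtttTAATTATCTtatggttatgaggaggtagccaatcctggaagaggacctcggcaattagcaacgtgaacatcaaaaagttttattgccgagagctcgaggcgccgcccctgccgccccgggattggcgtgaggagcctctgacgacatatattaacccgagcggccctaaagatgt
ISL1: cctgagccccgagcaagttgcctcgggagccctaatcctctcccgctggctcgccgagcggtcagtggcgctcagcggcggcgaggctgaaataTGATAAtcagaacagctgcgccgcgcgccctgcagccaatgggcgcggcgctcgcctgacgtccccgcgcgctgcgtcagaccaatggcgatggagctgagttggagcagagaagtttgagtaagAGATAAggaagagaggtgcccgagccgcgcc
PHOX2A: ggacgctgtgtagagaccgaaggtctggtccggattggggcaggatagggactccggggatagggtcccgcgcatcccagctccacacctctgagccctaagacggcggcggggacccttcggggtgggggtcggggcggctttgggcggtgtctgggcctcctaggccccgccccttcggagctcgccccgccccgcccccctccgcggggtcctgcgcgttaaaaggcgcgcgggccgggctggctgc
HAND1: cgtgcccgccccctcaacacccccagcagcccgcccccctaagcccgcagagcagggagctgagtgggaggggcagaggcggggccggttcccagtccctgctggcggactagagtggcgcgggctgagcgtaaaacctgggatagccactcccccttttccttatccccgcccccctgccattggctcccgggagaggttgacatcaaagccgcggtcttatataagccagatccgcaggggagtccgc
HAND2 held TGATAA from base -222, and TAATTA from base -175 overlapping AGATAA (on the minus strand of the window) from base -172, counted back from the start. ISL1 held TGATAA from base -156 and AGATAA from base -31. PHOX2A and HAND1 held none of the motifs in these windows, and their GC content was 73.2% and 67.2%, against 65.2% for ISL1 and 49.6% for HAND2. AGATAA stood in 9.17% and TGATAA in 6.66% of all 35116 windows in the table. TAATTA stood in 4.35% of windows, and LMO1 was the other member with it. CACGTG stood in 6.34% of windows, and in 1 of the start sites of GATA3 alone among the members. CATCTG (12.2% of windows) and TCACACCT (0.786%) were found in 0 member windows. These matches describe letters only, and binding was not measured here.

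Genes of the noradrenergic phenotype, among them known targets of PHOX2A, HAND2 and GATA3, formed the next list. Of 13 genes, all tested, 12 rose and 0 fell, and both knockdown values were above both controls in 13 of 13, against 25.3% of tested genes that were higher and 40.4% that lay above in both samples. Without a filter the count of rises was 10, since CHGA (adjusted p = 0.0695) and GCH1 (adjusted p = 0.0569) lost their calls. Their median log2 fold change was 0.80. SLC6A2, the noradrenaline transporter, had the highest difference of log2(RPKM + 1), rising from 89.3 ± 2.74 to 199.6 ± 5.77 RPKM (SD, n = 2; log2 fold change 1.15, adjusted p = 0.00359 from limma). The vesicular monoamine transporters followed, with log2 fold changes of 1.04 for SLC18A2 and 1.03 for SLC18A1. By the ratio of means, SLC18A2 (2.40) and PNMT (2.38), which makes adrenaline, both of low RPKM, were above SLC6A2 (2.23). CYB561, the electron carrier of chromaffin granules that serves dopamine beta-hydroxylase, had 1.02. DBH, which makes noradrenaline, had 458.6 and 390.5 RPKM in the controls and 741.2 and 865.2 RPKM after knockdown (log2 fold change 0.92, adjusted p = 0.0129 from limma). TH, the rate-limiting enzyme of catecholamine synthesis, had 211.5 and 190.6 RPKM against 229.2 and 253.5 RPKM and did not pass (log2 fold change 0.26, adjusted p = 0.0771 from limma). It passed without control replicate 1 (adjusted p = 0.00888) and without knockdown replicate 1 (adjusted p = 0.0116), within a range of 0.00888 to 0.176 over the alternatives. The list was chosen with an earlier result on noradrenergic genes in these samples known, so its direction is not independent evidence.

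Another list held other transcription factors linked to the adrenergic state. Of 15, 13 passed the filter, 4 rose, 3 fell and 6 did not pass, with a median log2 fold change of 0.21. These counts lie near those that the shares over all tested genes (25.3% higher, 22.8% lower) would give. The rises were those of KLF7 (log2 fold change 0.80, adjusted p = 0.0103 from limma), SOX4 (0.65, adjusted p = 0.0107), KLF13 (0.50, adjusted p = 0.00468) and SATB1 (0.30, adjusted p = 0.0390). SATB1 had 0.745 and 0.875 RPKM in the controls, below the filter's mean of 1. It entered the test only through its knockdown values of 1.33 and 1.14 RPKM, so its rise is not separate from the filter. SIX3, a homeobox gene of forebrain and eye, fell most, from 18.7 ± 0.0141 to 10.1 ± 0.0202 RPKM (SD, n = 2; log2 fold change -0.84, adjusted p = 0.00359 from limma). It rested on 1614 and 1510 normalized reads in the controls and 736 and 786 after knockdown. These SDs lie below the counting error of such read numbers, so they do not measure reproducibility. MEIS2 (-0.41, adjusted p = 0.0173) and HEY1 (-0.36, adjusted p = 0.0119) also fell, and HEY1 did not pass with a replicate block (adjusted p = 0.0589). The call on SATB1 was lost without control replicate 1 (adjusted p = 0.103) and without knockdown replicate 1 (adjusted p = 0.114).

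Partner proteins of the core factors were listed too. Of 12, 11 passed the filter, 2 rose, 1 fell and 8 did not pass, and the median log2 fold change was 0.07. Neither share was above that over all tested genes (25.3% higher, 22.8% lower). LDB1, the scaffold that LMO and LIM-homeodomain proteins share, had 52.1 and 46.6 RPKM in the controls and 47.6 and 53.1 RPKM after knockdown, with overlapping groups (log2 fold change 0.03, adjusted p = 0.805 from limma). Its relative LDB2 fell from 4.17 ± 0.213 to 1.74 ± 0.0844 RPKM (SD, n = 2; log2 fold change -0.92, adjusted p = 0.00414 from limma). The knockdown SD of LDB2 lies below the counting error of its 174 and 173 normalized reads. LYL1, a helix-loop-helix partner of LMO proteins in blood cells, rose from 27.5 ± 2.69 to 39.5 ± 3.71 RPKM (SD, n = 2; log2 fold change 0.51, adjusted p = 0.0312 from limma), and it did not pass when genes of low RPKM were kept (adjusted p = 0.0506). SSBP2, which stabilizes LDB1 complexes, rose by 0.33 on the log2 scale (adjusted p = 0.0395 from limma). That call was lost without control replicate 1 (adjusted p = 0.116) and without knockdown replicate 1 (adjusted p = 0.136). The E proteins, with which HAND proteins pair, did not pass. The log2 fold change was -0.09 for TCF3 (adjusted p = 0.112) and 0.07 for TCF12 (adjusted p = 0.711). TCF4 had 9.39 and 12.2 RPKM in the controls and 20.7 and 16.1 RPKM after knockdown (log2 fold change 0.72, adjusted p = 0.0503), just short of the threshold, and it passed under 8 of 12 alternatives.

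**Figure D5:**
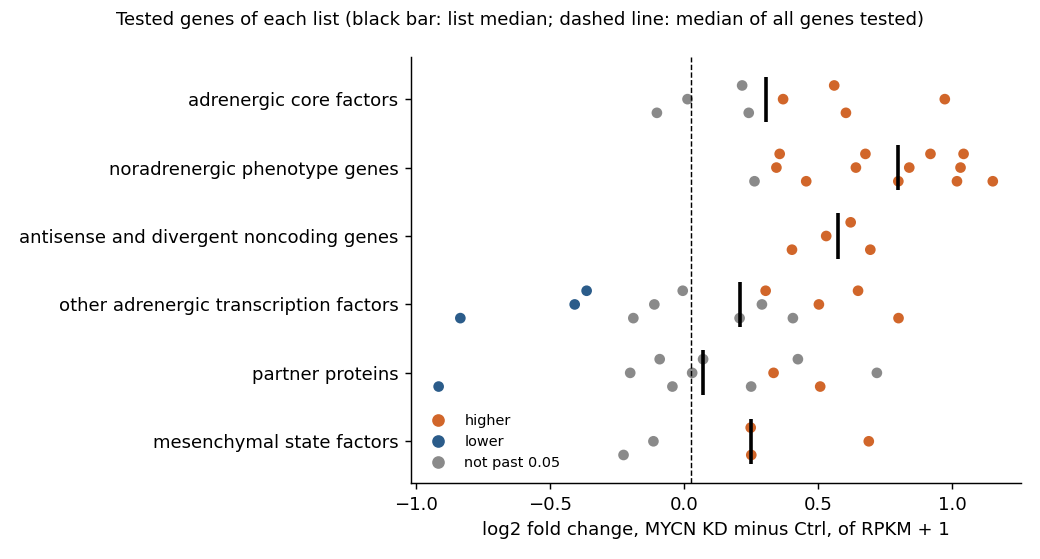
Log2 fold change of RPKM + 1 between MYCN knockdown and control for each tested gene of 6 gene lists, coloured by direction where the adjusted p from limma was under 0.05, with a black bar at each list's median and a dashed line at the median of all tested genes (0.03). Noradrenergic genes and the noncoding neighbours lie to the right of 0, and other adrenergic transcription factors lie on both sides.

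The mesenchymal state was represented by 14 factors, of which 9 fell below the filter and PRRX1, TWIST2 and RUNX2 were at 0 in every sample. Of the 5 tested, 3 rose, 0 fell and 2 did not pass, next to 25.3% higher and 22.8% lower among all tested genes. Both knockdown values lay above both control values in 3 of the 5 and below them in 2, against 40.4% and 35.8% of tested genes. TWIST1, the most abundant of the 14, had 45.8 and 49.5 RPKM in the controls and 42.1 and 39.1 RPKM after knockdown (log2 fold change -0.23, adjusted p = 0.0615 from limma). SNAI2 had 3.76 and 3.78 RPKM against 3.41 and 3.40 RPKM (-0.12, adjusted p = 0.0816). FOSL2, an AP-1 subunit, rose from 13.3 ± 0.101 to 22.1 ± 0.159 RPKM (SD, n = 2; log2 fold change 0.69, adjusted p = 0.00365 from limma). Its SDs also lie below the counting error of its 1690 to 2739 normalized reads. MAML2 and IRF1 each rose by 0.25 on the log2 scale (adjusted p = 0.0230 and 0.0366 from limma), at levels of at most 2.07 RPKM. Both calls were lost without any single sample, with adjusted p-values of 0.0852 to 0.188 for MAML2 and 0.0601 to 0.208 for IRF1. Beside the changes of the core factors, markers of other cell types had the following values, to be read against the same 25.3% of tested genes that were higher. Of 5 glial markers, 2 were tested and both rose, with a summed level of 5.59 to 5.92 RPKM in the controls and 9.90 to 10.5 RPKM after knockdown, while the defining gene SOX10 had at most 0.0722 RPKM. Of 5 fibroblast markers, 4 were tested and 3 rose, with a summed level of 22.6 to 24.6 RPKM against 28.0 to 30.5 RPKM, and COL1A2 had at most 0.0254 RPKM. COL1A1, among those that rose, had 0.726 and 0.739 RPKM in the controls. It passed the filter only through its knockdown values of 1.78 and 1.74 RPKM, so its rise is not separate from the filter. The call on PDGFRB, with an adjusted p of 0.0496, was lost without any single sample (0.303 to 0.460). The summed level of 4 endothelial markers, none of them tested, was 0.286 to 0.373 RPKM in the controls and 0.511 to 0.653 RPKM after knockdown. Of 4 blood cell markers, CD68, a lysosomal protein that other cells also express, was tested and rose from 3.86 to 10.4 RPKM (log2 fold change 1.23, adjusted p = 0.00918 from limma), HBB was at 0 and PTPRC and CD3E had at most 1 normalized read in a sample. The part of these markers in the values of the core factors was not tested.

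For each core factor the gene with the most similar profile was sought among 7856 genes with a mean RPKM from 5 upwards (7857 for LMO1), as the smallest Euclidean distance between log2(RPKM + 1) values centred on their mean over the 4 samples. The matches rest on 4 samples and are a description. PHOX2A lay nearest to MAPK8IP3 (distance 0.0192), HAND2 to SLC17A5 (0.00824), ISL1 to UBE3B (0.00404) and TBX2 to ARHGDIB (0.0253). GATA2 lay nearest to SLC52A2 (0.00567), GATA3 to ZGPAT (0.00354), HAND1 to TIGD5 (0.0200) and LMO1 to PXMP2 (0.00515). MAPK8IP3, for instance, had 9.96 and 9.16 RPKM in the controls and 19.2 and 20.8 RPKM after knockdown, at a level far below that of PHOX2A. No other core factor or listed gene was a nearest match.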

How the data were processed

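RNA-seq was analysed in 2 control and 2 MYCN knockdown samples of BE(2)C cells, grouped by sample title. According to the paper's methods and the submitters' processing notes, reads were aligned to hg19 using HISAT2 2.1.0 and assigned to RefSeq genes using featureCounts. The authors then passed counts through DESeq2 and used RUVSeq against unwanted variation. What the authors deposited were RPKM values from these normalized counts, 1 file per sample. The adjustment can shrink the spread between replicates, and values before it were not analysed here. RPKM steps gave whole normalized reads for 19908 of 19908 genes above 0 (tolerance 0.01 reads), with totals set on small RNA genes. Values were fitted as log2(RPKM + 1) with limma 3.58.1 (lmFit, eBayes with trend) in R 4.3.3, filtered at a mean RPKM of 1, adjusted after Benjamini-Hochberg over 11411 genes and called at 0.05. Ratios were tested by exact permutation in scipy 1.17.1, and figures were drawn with matplotlib 3.10.9. Some gene names had become dates, and 4 rows share such a name with another row. Of the listed genes 2 are not reported here, and all list counts and medians leave them out. The members, lists and tests were chosen with earlier results of these data known. Named were the members, their paralogs and noncoding neighbours, up to 4 called genes per list and direction, and each member's nearest profile. LDB1, TH, DBH and the E proteins were named for their roles after their values were seen, and marker genes by list. TWIST1 and SNAI2 were named after their values were seen, as the tested mesenchymal factors that did not pass. Alternatives were another pseudocount, other filters, 2 scalings, eBayes without trend, a replicate block, each sample left out and limma voom on the recovered reads. A crossed block was added after seeing the data. Motifs and the 4 printed windows were also chosen then. Gene positions came from GENCODE 44 on GRCh37 and start regions from RefSeq (GRCh38.p14), matched to GRCh37.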

Additional observations from a re-analysis of the deposited data

How the results depend on the processing

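PHOX2A, HAND2 and ISL1 kept direction and call under 12 of 12 alternatives, with log2 fold changes of 0.91 to 1.08, 0.52 to 0.67 and 0.32 to 0.43. TBX2 kept its value of 0.60 without a filter on low values but not the call (adjusted p = 0.0578 from limma). GATA2 passed with samples rescaled to the same RPKM total (0.3014), and leaving out each sample in turn gave 0.1605 to 0.3206. GATA3 passed with that rescaling (0.2761) and with quantile normalization (0.2746). HAND1 lay between -0.2264 and 0.0221 with a sample left out, at 0.0221 without control replicate 1 and 0.01866 without knockdown replicate 1. LMO1 lay between -0.03311 and 0.05726, at -0.03311 and -0.02866 without the same samples, and at -0.07992 with quantile normalization. Where a sample was left out, the lone sample of a group was assumed to vary like the other group. The signs of HAND1 and LMO1 thus turned with the samples used. All alternatives reuse the same 4 samples, and the mirrored deviations make fits without the same-numbered replicate of either group nearly alike. A count such as 12 of 12 is therefore not a count of separate checks. Rescaling moved the median over all tested genes from 0.026 to 0.078.

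With the replicate block, 2077 tested genes were higher and 1851 lower, against 2890 and 2599. Same-numbered samples did not deviate together after the authors' adjustment (correlation -0.9845). Values before it were not analysed, so whether the numbers pair the samples cannot be told from this. With the block PHOX2A, HAND2, TBX2 and ISL1 stayed past the threshold, with 0.0426 for ISL1. A crossed replicate block, chosen after seeing the data along the mirrored deviations, gave 5910 and 5262. With a mean RPKM from 5 upwards 1868 genes were higher and 2106 lower. Quantile normalization gave 2901 higher and 2993 lower, and rescaling 3279 and 2122. The causes were not tested. LMO1, with at most 130 normalized reads, is the member whose depth limits its precision most.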
